A study of Homo sapiens with 32 samples.

Results

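Keratins 8, 18, 5 and 6A were followed as the luminal and basal filament genes of prostate epithelium in LNCaP, an androgen-dependent prostate cancer cell line that came from a lymph node metastasis. They were the rows named KRT8, KRT18, KRT5 and KRT6A in a table of estimated read counts for 57773 genes, so 4 genes of 57773. The rule picks rows by name, without a threshold on any value, but it was set with earlier results of these data known. RNA-seq covered 4 LNCaP lines, each given 2.5 µM tamoxifen or ethanol vehicle for 48 h, with 4 libraries per line and treatment and 32 libraries in all.

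The parental line carried no construct and received tamoxifen like the others, so it showed what the drug did by itself. The other 3 lines stably expressed a MACC (modifier of ARE-containing chromatin, an ARE being an androgen response element in DNA). In every MACC a DNA binding domain directed to AREs was joined to ERT2, a mutated estrogen receptor domain that binds tamoxifen and then takes the protein into the nucleus, and to a 3X FLAG tag. The neutral MACC had nothing more, the repressive MACC also carried KRAB, which brings silencing proteins to chromatin, and the activating MACC also carried VP64, a viral transcriptional activator. The constructs entered by lentivirus and the lines were selected as populations in blasticidin, so a line was 1 infected population and differences between lines cannot be told apart from differences between those populations. Replicates were labelled as biological, with no further account of how cultures were kept apart, and p-values measure the spread between them.

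Keratins form intermediate filaments from obligate pairs of a type II and a type I protein. KRT8 (type II) and KRT18 (type I) are the pair of simple epithelia and of the luminal secretory cells of the prostate. KRT5 (type II) is the keratin of basal cells of stratified and glandular epithelium, where its usual partner is KRT14, and KRT6A (type II) is induced in wounded or hyperproliferative epidermis and found in some progenitor-like basal cells. LNCaP is regarded as a luminal line.

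The 4 genes lie in the type II keratin cluster of chromosome 12. On GRCh37 with the GENCODE annotation lifted to that build, KRT6A (ENSG00000205420) spans chr12:52880960-52887041 and KRT5 (ENSG00000186081) chr12:52908359-52914314, both on the minus strand and separated by 21317 bases. KRT8 (ENSG00000170421) follows on the minus strand at chr12:53290971-53343738, 376656 bases beyond KRT5. KRT18 (ENSG00000111057) is the type I gene that sits next to it, on the plus strand, at chr12:53342655-53346690. All 4 are protein coding.

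KRT8 and KRT18 share DNA. Of the 18 annotated KRT8 transcripts, 8 start inside the KRT18 gene and 10 start further downstream, among them the canonical transcript, whose start is 44042 bases from that of KRT18. The exons of the genes overlap on opposite strands over 525 bases, in blocks of 375 bases (chr12:53343000-53343374) and 150 bases (chr12:53343589-53343738). These 525 bases are 7.6% of the 6881 exonic bases of KRT8 and 17.1% of the 3069 exonic bases of KRT18. KRT5 (4133 exonic bases) and KRT6A (2926) overlap no exon of the opposite strand. The library kit marks strand, but the strand setting of the quantification is not given in the sources used here. Over all libraries the KRT8 row held 41648 counts and the KRT18 row 639. GAPDH, a glycolytic enzyme of nearly every cell, held a mean of 65.6 counts per library where the KRT8 row held 1302. Genes with an opposite-strand exon made up 23.0% of the annotated genes and held 80.9% of their counts. Reads of KRT8 and KRT18 in the shared bases cannot be told apart from the table, so the rows were read as a pair, and values are called those of the KRT8 row and the KRT18 row in that sense. With the strand setting unknown, a row may also hold reads of the strand opposite its gene, in KRT5 and KRT6A as well. This was not tested.

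**Figure D1:**
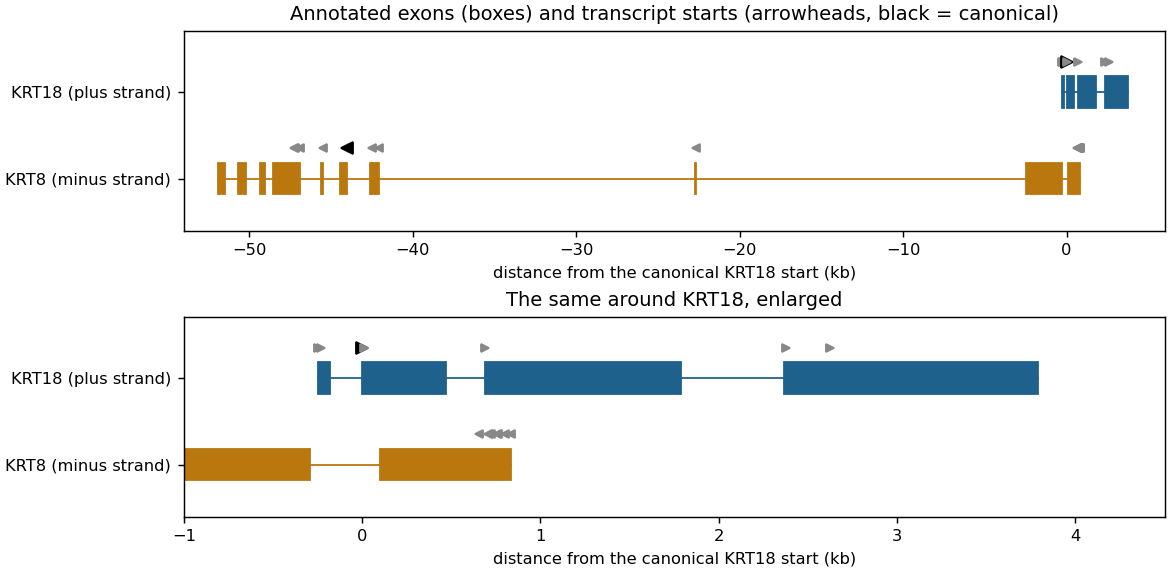
Annotated exons (boxes) of KRT18 and KRT8 against distance from the canonical KRT18 start in kb, over the whole pair (top) and enlarged around KRT18 (bottom), with arrowheads for transcript starts and black for canonical ones. Of the 18 KRT8 starts, 8 lie inside KRT18, and the canonical KRT8 start lies 44042 bases away.

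RefSeq start regions (GRCh38.p14, 250 bases before to 50 after a start) were available for KRT8 and KRT5, and each matched GRCh37 exactly at a single place on chromosome 12. They are shown because the MACC was built to bind AREs and because the KRT8 entry belongs to a minor start. The KRT5 region begins at the canonical KRT5 start, and its upstream part is chr12:52914179-52914428 (GRCh37, minus strand). The KRT8 region begins at the transcript KRT8-215, 21393 bases before the canonical start, and its upstream part is chr12:53320254-53320503 (GRCh37, minus strand). The 30 bases in the last line, chr12:52914129-52914158 on the minus strand, hold the ARE half-site of the KRT5 region in capitals.
KRT5 upstream: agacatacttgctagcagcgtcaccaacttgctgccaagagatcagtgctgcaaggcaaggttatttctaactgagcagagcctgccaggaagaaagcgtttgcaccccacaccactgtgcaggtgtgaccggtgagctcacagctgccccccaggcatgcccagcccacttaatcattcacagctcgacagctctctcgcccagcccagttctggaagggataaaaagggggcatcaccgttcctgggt
KRT8 upstream: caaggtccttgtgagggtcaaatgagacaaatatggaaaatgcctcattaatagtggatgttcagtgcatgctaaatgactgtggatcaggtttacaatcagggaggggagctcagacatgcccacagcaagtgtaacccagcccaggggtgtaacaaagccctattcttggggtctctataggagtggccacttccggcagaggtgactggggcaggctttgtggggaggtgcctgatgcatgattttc
KRT5 half-site: cctgctgagctcTGTTCTctccagcacctc

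The half-site AGAACA, or TGTTCT on the other strand, occurred at 1 place in the KRT5 region, 33 bases after the start, and at 0 places in the KRT8 region. It was found in 14.8% of 35116 start regions of the same length. The full palindrome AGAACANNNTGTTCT was in neither region and in 1 of the 35116. A match is a run of letters and not a shown binding site, and its absence from this window says nothing of sites elsewhere. KRT18 and KRT6A had no entry.

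In the parental, neutral and repressive lines no change of the KRT8 or KRT18 row with tamoxifen was called, and KRT5 and KRT6A had no count. In the activating line under tamoxifen the counts of all 4 rows rose, and the strand of those reads was not tested. The KRT8 row rose 9.65-fold and the KRT18 row 2.94-fold over vehicle, and KRT5 and KRT6A went from 0 counts to between 26 and 58 counts per library. In bulk RNA, a change in the number of cells of a type and a change in RNA per cell cannot be told apart.

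Libraries were shallow, with 454982 to 1164808 counts and a median of 669922. Of the 57773 genes, 3985 passed the filter on low counts (edgeR's filterByExpr over the 8 groups) and were tested. Values below are normalized counts, that is counts per 1000000 library counts (CPM) after TMM scaling over all 32 libraries.

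The KRT8 row in the parental line held 624, 1239, 909 and 968 normalized counts in the 4 vehicle libraries and 1123, 1086, 1042 and 1222 with tamoxifen. Vehicle replicate 1 was the lowest of all 32 libraries and the groups overlapped. In the neutral line it held 1169.9, 1144, 987 and 958 with vehicle and 1445, 1453, 1338 and 1049.7 with tamoxifen. The first 3 tamoxifen libraries were above every vehicle library and the last was not.

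In the repressive line the KRT8 row held 1003, 1131, 1062 and 1055 normalized counts with vehicle and 1051, 1123, 1149.8 and 1368 with tamoxifen, again with overlap. Activating cells held 1232, 1146, 1020.2 and 861 with vehicle and 8718, 10747, 8441 and 9955 with tamoxifen. Every activating tamoxifen library was above every one of the other 28, whose highest value was 1453. The KRT8 row alone took 0.0643% to 0.146% of all counts in those 28 libraries and 0.679% to 0.940% in the activating tamoxifen libraries.

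The KRT18 row was far lower. In the parental line it held 22.1, 21.3, 25.9 and 25.7 normalized counts with vehicle and 23.2, 22.1, 14.8 and 23.2 with tamoxifen. In the neutral line it held 19.7, 29.9, 34.9 and 28.2 with vehicle and 24.5, 22.2, 19.5 and 33.0 with tamoxifen. Both lines had overlapping treatments, and these values stand on 9 to 26 counts per library.

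In the repressive line the KRT18 row held 23.7, 34.9, 30.6 and 26.4 normalized counts with vehicle and 27.0, 24.4, 13.7 and 24.1 with tamoxifen. Activating cells held 30.6, 30.6, 20.5 and 22.6 with vehicle and 60.6, 77.2, 82.8 and 68.4 with tamoxifen. The activating tamoxifen libraries stood on 33 to 42 counts and were above the other 28, whose highest value was 34.9.

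**Figure D2:**
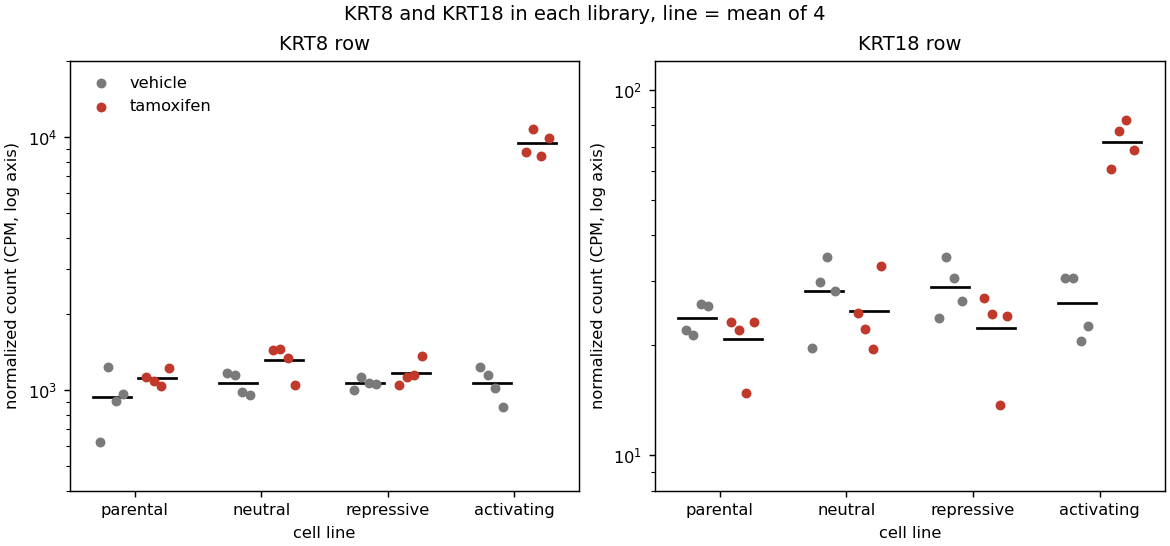
Normalized counts (CPM, log axis) of the KRT8 row (left) and the KRT18 row (right) in each library, by line and treatment, with a black line at the mean of 4. Activating tamoxifen libraries sit at 8441 to 10747 for KRT8 and 60.6 to 82.8 for KRT18, above the highest of the other 28 libraries (1453 and 34.9).

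Ordered by group mean, the KRT8 row was highest in activating tamoxifen libraries (9465 ± 1079, SD, n = 4), then in neutral tamoxifen (1321 ± 189), repressive tamoxifen (1173 ± 136) and parental tamoxifen (1118 ± 76.7). Vehicle groups followed, with means of 1065 in the activating and neutral lines, 1063 in the repressive line and 935 in the parental line. Every neighbour in this order after activating tamoxifen overlapped the next. For the KRT18 row activating tamoxifen was again highest (72.2 ± 9.74), and the other 7 means ran from 20.8 ± 4.07 (parental tamoxifen) to 28.9 ± 4.93 (repressive vehicle), each overlapping its neighbour.

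Per kilobase of annotated exon, the activating tamoxifen mean was 1376 normalized counts for the KRT8 row, 27.8 for KRT6A, 23.5 for the KRT18 row and 22.1 for KRT5. On that length scale the KRT8 row stood far above the other 3, which lay close together. The length is that of all annotated exons. Which of these bases the reads came from, the shared ones included, is not known, so the order is a description of rows. With vehicle in the activating line the levels per kilobase were 155 for the KRT8 row and 8.51 for the KRT18 row.

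Each treatment effect was tested with edgeR's quasi-likelihood test and Benjamini-Hochberg adjustment over the 3985 genes. In the parental line 0 of these genes were called at an adjusted p under 0.05 (306 at an unadjusted p under 0.05, and 0 called by DESeq2). There the KRT8 row changed by 0.22 ± 0.149 on the log2 scale (SE, adjusted p = 0.746 from edgeR), or 0.07 without vehicle replicate 1 and 0.36 without vehicle replicate 2, and the KRT18 row by -0.22 ± 0.283 (adjusted p = 0.874).

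In the neutral line 4.72% of tested genes were called and neither member was among them. The KRT8 row was higher by 0.30 ± 0.114 (SE, unadjusted p = 0.0240, adjusted p = 0.202 from edgeR). This value passed the threshold without tamoxifen replicate 4, at 0.40 with an adjusted p of 0.000222, and under 2 other settings given in the closing section. The KRT18 row changed by -0.19 ± 0.250 (adjusted p = 0.765). The 95% interval of the KRT8 change ran from 0.08 to 0.52 and that of the KRT18 change from -0.68 to 0.30.

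In the repressive line 17.8% of tested genes were called, again without the pair. The KRT8 row changed by 0.09 ± 0.0737 on the log2 scale (SE, 95% interval -0.05 to 0.24, adjusted p = 0.439 from edgeR), and the KRT18 row by -0.41 ± 0.272 (interval -0.95 to 0.12, adjusted p = 0.329). These approximate intervals reached to a fall of 0.95 for the KRT18 row and to a rise of 0.24 for the KRT8 row.

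For activating cells, 44.8% of tested genes were called and 22.0% of tested genes were called higher with tamoxifen. All 4 members were called higher, of which KRT5 and KRT6A entered the test only through this group. The KRT8 row rose by 3.27 ± 0.108 on the log2 scale (SE, 95% interval 3.06 to 3.48, adjusted p = 2.68e-12 from edgeR), and the KRT18 row by 1.56 ± 0.215 (interval 1.13 to 1.98, adjusted p = 2.56e-06). The median change over all tested genes was -0.09 with TMM scaling and -0.54 when libraries were scaled to their total counts. Relative to that median the KRT8 row rose by 3.36 under either scaling, and the KRT18 row by 1.65 and 1.64. A scaling shifts all genes nearly alike, so these relative values could hardly differ between scalings.

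**Figure D3:**
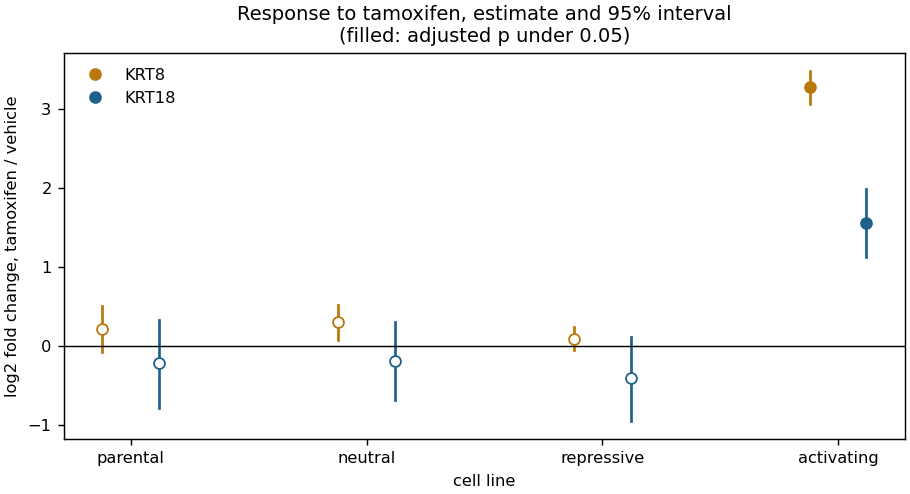
Log2 fold change of tamoxifen over vehicle in each line (points) with its 95% interval (bars) for the KRT8 and KRT18 rows, filled where the adjusted p was under 0.05. Both rows are filled in the activating line only, at 3.27 and 1.56, and open at 0.30 or below in the other 3 lines.

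The response itself differed between lines. Compared with the neutral line, the activating line's change was larger by 2.94 ± 0.202 on the log2 scale for the KRT8 row (SE, adjusted p = 5.71e-08 from edgeR's interaction test) and by 1.72 ± 0.325 for the KRT18 row (adjusted p = 0.000116), in a test that called 33.4% of genes. Compared with the repressive line it was larger by 3.18 ± 0.138 (adjusted p = 3.73e-14) and by 1.97 ± 0.338 (adjusted p = 1.22e-05), in a test that called 35.9%. These contrasts share the activating libraries.

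The repressive and neutral responses differed by -0.21 ± 0.150 for the KRT8 row (SE, adjusted p = 0.610 from edgeR) and by -0.22 ± 0.369 for the KRT18 row (adjusted p = 0.884), where 3.39% of genes were called. The neutral and parental responses differed by 0.10 ± 0.210 (95% interval -0.31 to 0.51, adjusted p = 0.961) and 0.06 ± 0.366 (interval -0.66 to 0.77, adjusted p = 0.989), where 1.48% were called. No such test could be made for KRT5 or KRT6A, which had 0 counts throughout the lines compared with.

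Under vehicle no difference of the pair between a MACC line and the parental line was called. The KRT8 row was higher than in parental cells by 0.15 ± 0.158 in the neutral line, 0.19 ± 0.142 in the repressive line and 0.20 ± 0.165 in the activating line (SE, adjusted p = 0.665, 0.465 and 0.549 from edgeR). Without parental vehicle replicate 1, which these comparisons share, the KRT8 values were 0.03, 0.07 and 0.07, and without parental vehicle replicate 2 they were 0.30, 0.34 and 0.31, none called. The KRT18 row was higher by 0.20 ± 0.263, 0.29 ± 0.259 and 0.16 ± 0.259 (adjusted p = 0.722, 0.551 and 0.775). These comparisons called 9.74%, 10.8% and 8.08% of tested genes and shared the parental vehicle libraries. The intervals for the activating line, -0.13 to 0.52 and -0.34 to 0.67, do not show that the levels were equal.

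When the KRT8 and KRT18 rows were summed into 1, the change with tamoxifen was 0.21 in the parental, 0.29 in the neutral, 0.08 in the repressive and 3.25 in the activating line (adjusted p = 0.746, 0.171, 0.504 and 3.19e-12 by edgeR). The sum followed the KRT8 row, which held nearly all of it. The KRT8 share of the pair's counts under vehicle was 97.4% ± 0.713 (SD, n = 4) in the parental line, 97.4% ± 0.733 in the neutral line, 97.4% ± 0.319 in the repressive line and 97.6% ± 0.289 in the activating line.

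With tamoxifen that share was 98.2% ± 0.291, 98.1% ± 0.765, 98.1% ± 0.566 and 99.2% ± 0.138 in the same order. It was higher by 0.79, 0.71, 0.75 and 1.63 percentage points (exact two-sided permutation test p = 0.114, 0.286, 0.0857 and 0.0286, adjusted over the 4 lines to 0.152, 0.286, 0.152 and 0.114). The smallest p that 4 against 4 libraries allow is 0.0286, and after adjustment the share was not called in any line. Activating libraries had 37.4 to 49.7 KRT8 counts per KRT18 count with vehicle and 102 to 146 with tamoxifen, without overlap. Over the 28 other libraries the log2 levels of the rows had a Pearson r of -0.067, given as a description of libraries that share lines and treatments.

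Reads of keratin pseudogenes were also counted, since KRT8 and KRT18 have many processed copies. The table held 50 rows named as KRT8 pseudogenes and 67 as KRT18 pseudogenes, of which 0 and 1 passed the filter. Summed, KRT8 pseudogenes had 1 to 11 counts per library with vehicle in the activating line and 2 to 6 with tamoxifen. KRT18 pseudogenes had 18 to 27 and 14 to 28. The normalized means were 7.46 ± 4.87 and 5.57 ± 3.49 for KRT8 pseudogenes, and 30.2 ± 2.14 and 40.1 ± 10.7 for KRT18 pseudogenes (SD). The KRT18 copies therefore held about as many counts as the KRT18 row under vehicle (13 to 29), and how the quantification divided reads between gene and copies was not tested.

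KRT5 had 51, 54, 38 and 52 counts in the 4 activating tamoxifen libraries and 0 in each of the other 28. KRT6A had 45, 26, 44 and 58 counts in the same 4 libraries and 0 in the other 28. These are 91.3 ± 8.85 and 81.5 ± 24.2 normalized counts (SD, n = 4). Tamoxifen replicate 2 was the lowest for KRT6A and the highest for KRT5.

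A count of 0 allows up to 3 counts, which is 3.17 to 4.85 normalized counts in the activating vehicle libraries and 4.19 on average. Against that floor KRT5 was at least 21.8-fold higher with tamoxifen and KRT6A at least 19.5-fold higher. The adjusted p-values from edgeR were 3.66e-12 and 4.37e-10. Both genes passed the filter only through the group where they were high, so a gene that entered in this way had to differ, and the calls add nothing to the counts. The floor covers counting error only. It does not cover the unknown strand setting, so the folds are those of row counts and are not shown to be of the gene's own strand.

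**Figure D4:**
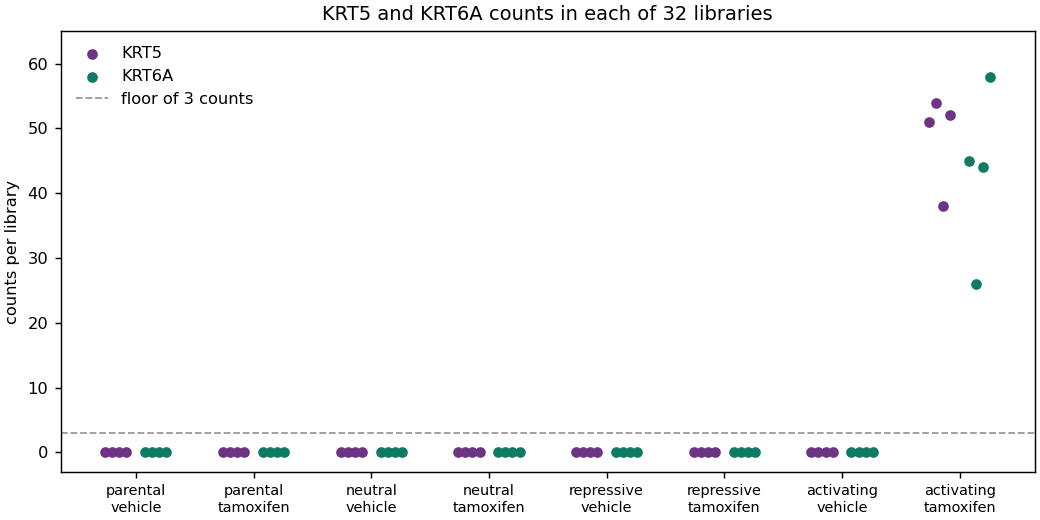
Counts of KRT5 and KRT6A in each of the 32 libraries by line and treatment, with the floor of 3 counts dashed. The activating tamoxifen libraries hold 38 to 54 counts of KRT5 and 26 to 58 of KRT6A, and all other libraries are at 0.

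KRT6A has the near-identical neighbours KRT6B and KRT6C, which encode closely related type II keratins. In the 4 activating tamoxifen libraries the estimated counts were 45.2, 26.4, 43.5 and 57.8 for KRT6A, 0, 5.58, 1.59 and 3.01 for KRT6B, and 2.21, 0, 5.89 and 3.23 for KRT6C. KRT6A thus took 82.6% to 95.3% of the reads of the 3 genes. The division among them is uncertain, but their sum was 32 to 64 counts in these libraries and 0 in the other 28 apart from 1 KRT6B count in a parental tamoxifen library.

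Of 66 keratin rows in the table, 17 had at least 1 count and 49 had none. Beside the 4 members, a KRT222 row (ENSG00000264058) was the only keratin tested, and it held 101 to 130 counts in activating tamoxifen libraries and 118 to 184 with vehicle. In normalized counts these groups were nearly equal, at 210.1 ± 25.3 and 213 ± 24.2 (SD, n = 4). KRT14, the usual partner of KRT5, had 7 counts over the 32 libraries and 0 in the activating tamoxifen group. KRT19, another luminal type I keratin, also had 7 and 0. KRT10 had 68 counts in all, with 0 to 7 per library. KRT18, the type I member, had 33 to 42 counts in the activating tamoxifen libraries beside 38 to 54 of KRT5.

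The basal list held 26 genes, all in the table, of which only KRT5 and KRT6A were tested. KRT16, KRT17, TP63, CD44, S100A2 and CAV1 had 0 counts in every library. TP63 encodes p63, the transcription factor that defines basal cells of the prostate. The 24 basal genes other than KRT5 and KRT6A summed to 5 to 12 counts per library with vehicle and 7 to 15 with tamoxifen in the activating line, and the latter include 22 counts of KRT6B and KRT6C over the 4 libraries. Changes of basal genes too small for this depth remain possible, and a count of 0 in this table does not show that a gene was silent, since the strand setting is unknown and 80.9% of annotated counts lay on the 23.0% of genes with an opposite-strand exon.

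The luminal list held 24 genes, 23 in the table and 12 tested, the KRT8 and KRT18 rows among them. In the parental and neutral lines 0 of the 12 were called, with median log2 changes of -0.01 and -0.13 beside 0.01 and -0.00 over all tested genes. Activating cells had 4 called higher and 4 lower, with a median of -0.17 beside -0.09 over all genes. In the repressive line 1 was higher and 3 lower, with a median of -0.43 beside 0.00. The shares called over all tested genes were 0% (parental), 4.72% (neutral), 44.8% (activating) and 17.8% (repressive). The counts of called list genes were not tested against these shares.

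The KRT8 and KRT18 rows were 2 of the 4 luminal genes called higher in activating cells, and neither was called in the repressive line. The largest change of the list was that of FKBP5, a co-chaperone and androgen-induced gene, which rose by 3.69 ± 0.248 on the log2 scale (SE, adjusted p = 1.44e-11 from edgeR), from 2 to 11 counts per library to 59 to 79. SLC45A3, the androgen-induced transporter prostein, fell by 1.68 on the log2 scale (SE 0.353, adjusted p = 0.000425). In the repressive line FKBP5 had 3 to 8 counts with vehicle and 0 to 1 with tamoxifen (adjusted p = 0.00394 from edgeR), and KLK3, the gene of prostate-specific antigen, fell by 2.03 on the log2 scale (SE 0.327, adjusted p = 3.16e-05). SLC45A3 was called lower there too, with a log2 change of -0.90 ± 0.279 (SE, adjusted p = 0.0233 from edgeR). That call was lost with DESeq2 (adjusted p = 0.120) and when vehicle replicate 1 or 4 (0.0579 and 0.0708) was left out, likewise tamoxifen replicate 2 or 3 (0.0650 and 0.0670). KLK3 was called higher in activating cells, at 0.66 ± 0.209 (SE, adjusted p = 0.0130 from edgeR), but not with DESeq2 (adjusted p = 0.0528) or total counts (0.21, adjusted p = 0.432). Between the activating and repressive lines the response differed for FKBP5 (adjusted p = 1.16e-10 from edgeR's interaction test) and for KLK3, by 2.69 ± 0.379 (adjusted p = 3.39e-07), and the difference was not called for SLC45A3, at -0.79 ± 0.453 (adjusted p = 0.183).

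**Figure D5:**
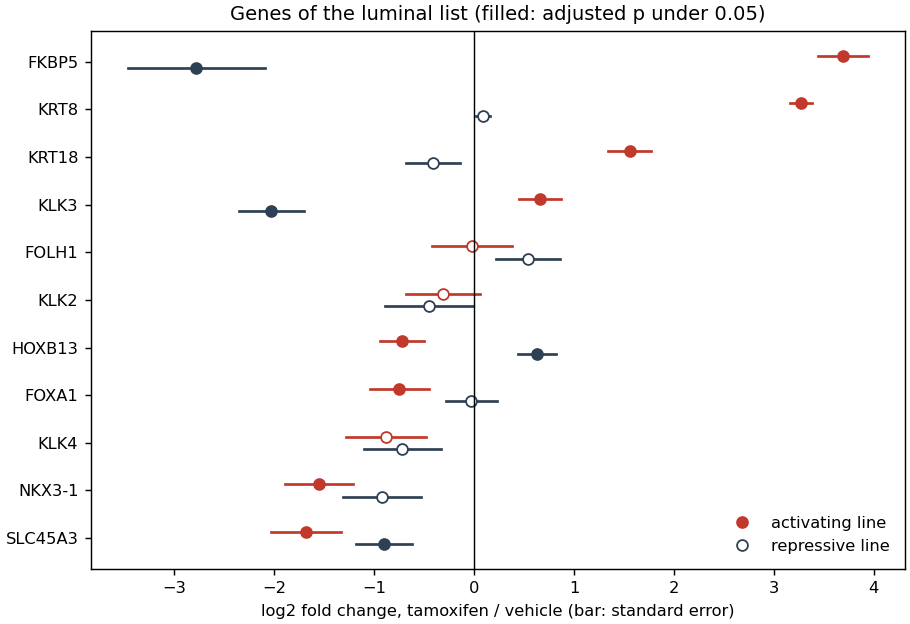
Log2 fold change of tamoxifen over vehicle (points) with its standard error (bars) for tested genes of the luminal list in the activating (red) and repressive (dark) lines, filled where the adjusted p was under 0.05. KRT8 and KRT18 lie at 3.27 and 1.56 in the activating line and at 0.09 and -0.41, unfilled, in the repressive line.

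Keratin filaments are tied to the cell edge by desmosomes and linker proteins. Of 22 such attachment and junction genes, 5 were tested, and in the activating line 1 was called higher and 1 lower, with a median of -0.16 beside -0.09 over all genes. In that line 44.8% of all tested genes were called. TCHP, trichoplein, a protein that binds KRT8 and KRT18 filaments, rose by 0.30 ± 0.0812 (SE, adjusted p = 0.00379 from edgeR), against 3.27 and 1.56 for the keratin rows. Its exons overlap GIT2 on the opposite strand, and with total counts as the scaling its value was -0.14 (adjusted p = 0.110 from edgeR). DSG1, a desmosomal cadherin, had 4 to 9 counts with vehicle and 0 to 1 with tamoxifen (adjusted p = 0.0139), and its exons overlap DSG1-AS1. That call was lost with DESeq2 (adjusted p = 0.0530) and without vehicle replicate 3 (adjusted p = 0.0545 from edgeR). In the parental, neutral and repressive lines 0 of the 5 were called, where 0%, 4.72% and 17.8% of all tested genes were.

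Of 13 other intermediate filament genes only LMNB1, a nuclear lamin, was tested. It held 3 to 19 counts with vehicle and 0 to 4 with tamoxifen in activating cells (adjusted p = 0.0407 by edgeR) and was not called in the other 3 lines. The call was lost with DESeq2 (adjusted p = 0.113), without vehicle replicate 1 or 3 (0.169 and 0.0811) and without tamoxifen replicate 1 or 2 (0.0906 and 0.129). DES, NES and INA were at 0 in all libraries. Among markers of cells that a prostate culture could hold, fibroblast and endothelial lists had 0 genes tested, with 0 to 2 summed counts in any library.

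Of 10 epidermal markers only FLG was tested, and its exons overlap FLG-AS1, which lies opposite. Where KRT5 and KRT6A appeared, in the activating line under tamoxifen, it changed by -0.01 ± 0.293 on the log2 scale (SE, adjusted p = 0.978 from edgeR), while KRT1, LOR, SPRR1A, SPRR1B and SPRR2A were at 0 throughout. FLG was called lower with tamoxifen in the repressive line, at -2.96 ± 0.305 (SE, adjusted p = 1.48e-05 from edgeR), and under vehicle its log2 difference from parental cells was -1.67 ± 0.126 in the neutral, -1.28 ± 0.132 in the repressive and -1.31 ± 0.187 in the activating line (adjusted p = 7.74e-11, 7.22e-07 and 0.00102). In the activating line the summed epidermal count was 88 to 127 with vehicle and 52 to 96 with tamoxifen. In normalized counts these sums overlapped, at 92.9 to 205 and 95.6 to 176. Of 5 immune markers CD68 was tested, and the activating line showed a rise of 0.99 ± 0.367 (SE, adjusted p = 0.0317 by edgeR), while PTPRC, CD3E and CD14 were at 0 in all libraries. The CD68 call was lost with DESeq2 (adjusted p = 0.0913), total counts (0.236), the fit over all 32 libraries (0.0865) and without vehicle replicate 1 or 3 or tamoxifen replicate 4 (0.0903, 0.0841 and 0.151). Of 5 neuroendocrine markers NCAM1 was tested and was called lower there (adjusted p = 6.54e-05). The exons of CD68 and NCAM1 also overlap genes of the opposite strand, and the part of these markers in the keratin values was not tested.

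The genes most like each member over the 32 libraries were found among 2095 tested genes with a mean of at least 20 counts, by Pearson r of log2 normalized counts. For the KRT8 row they were KHNYN (r = 0.981), AL136376.1 (0.980) and C9orf114 (0.978), and the exons of each overlap a gene of the opposite strand. C9orf114 had 180 to 648 counts in the other 28 libraries and 2081 to 2823 in the activating tamoxifen group. For the KRT18 row they were AC107016.1 (0.882), UQCC2 (0.868) and FASN (0.867), the last being fatty acid synthase, with 15 to 78 counts elsewhere and 158 to 241 in the activating tamoxifen group. The exons of UQCC2 overlap ITPR3 and MIR3934 on the opposite strand, and those of FASN overlap none. AC107016.1 is not in the annotation used, so its overlap is unknown.

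KRT5 and KRT6A had the same 3 neighbours. CTC-327F10.4 (r = 0.997 and 0.996) had 0 to 1 counts elsewhere and 164 to 221 in the activating tamoxifen libraries, AC107016.1 (0.988 and 0.983) had 77 to 172 and 698 to 921, and DNAJB3 (0.985 and 0.980) had 0 to 3 and 165 to 204. The members themselves correlated at 0.994 (KRT5 with KRT6A) and 0.845 (KRT8 with KRT18). All these coefficients come from the same 32 libraries, in 28 of which KRT5 and KRT6A were at 0.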

How the data were processed

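Total RNA of 32 LNCaP cultures was sequenced with a stranded mRNA kit. Per the labels and the study's methods, the authors ran nf-core/rnaseq with Salmon 1.9.0 on GRCh37 and deposited the estimated count of each of 57773 genes, with no normalization. DESeq2 1.28.0 is also listed in the submitters' processing notes. The annotation release and strand setting are not given in the sources used here. All 32 columns were matched to samples by name.

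Counts were rounded. edgeR 4.0.16 (R 4.3.3) was run with filterByExpr over the 8 groups (3985 genes), TMM and the robust quasi-likelihood test, within each line (8 libraries), between lines under vehicle (8) and for interactions (16), with Benjamini-Hochberg adjustment at 0.05. Intervals are 1.96 standard errors. Shares were compared by exact two-sided permutation. The alternatives were DESeq2 1.42.0, its size factors, total counts, no filter, at least 10 counts in 4 libraries, a replicate block, all 32 libraries, a summed KRT8 and KRT18 row and leaving out each library.

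The members and gene lists were chosen with earlier results of these data known. By the rule for names, the text gives the 4 members, every tested keratin, 3 most similar genes per member, opposite-strand partners, keratin pseudogenes and up to 4 called genes per list. GAPDH, KRT10, KRT14, KRT19, KRT6B, KRT6C and list genes at 0 or not called were named after their values were seen. The test was run on simulated counts with known changes in a small part of the genes. In the activating line 44.8% of tested genes were called, so that run does not show how the test behaves there. Replicates differed by more than sampling noise in all 48 pairs (chi-square per gene 1.45 to 25.8). The highest values, 17.1, 19.4 and 25.8, were those of neutral tamoxifen replicate 1 against the others of its group. Those others differed among themselves by 1.48 to 4.05. Without replicate 1 the KRT8 change of the neutral line was 0.25 (adjusted p = 0.295 from edgeR). Gene positions come from GENCODE lifted to GRCh37, which held 96.1% of the genes and 94.1% of the counts. Same-numbered vehicle and tamoxifen libraries were not treated as pairs, since the correlation of their deviations was over 0.1 for only part of them (-0.0264 to 0.247). The same-numbered tamoxifen library was still the closest match within its line for most vehicle libraries, among them all of the repressive line. Whether the numbers mark pairs was therefore not settled, and the replicate block was run as an alternative. Some list genes are not reported here.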

Additional observations from a re-analysis of the deposited data

Results flagged for a closer look

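The change with tamoxifen differed between lines for both rows of the luminal pair. Activating minus neutral was 2.94 for the KRT8 row and 1.72 for the KRT18 row on the log2 scale, and activating minus repressive was 3.18 and 1.97 (edgeR interaction test, adjusted p = 5.71e-08, 0.000116, 3.73e-14 and 1.22e-05).

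In 26 groups of 4 libraries, 3 held a library far from the other 3 by Dixon's criterion at the 95% level, which chance gives in about 1 group in 20. The KRT18 row in parental tamoxifen replicate 3 was low at 14.8 normalized counts. The KRT8 share of the pair was low at 96.9% in neutral tamoxifen replicate 4 and at 99.0% in activating tamoxifen replicate 3.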

How the results depend on the processing

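Calls for KRT8 and KRT18 in the activating line, and for KRT8 and KRT18 against the neutral and repressive lines, held under every alternative run and without any single library. For KRT5 and KRT6A, at 0 in the other 28 libraries, repeated calls add nothing to the counts. In the activating line KRT8 changed by 2.82 to 3.30 and KRT18 by 1.10 to 1.59 over the alternatives, and by 3.19 to 3.37 and 1.47 to 1.67 when leaving out 1 library. KRT8 in the neutral line passed the threshold with no filter on low counts (0.36, adjusted p = 0.000220), with the replicate block (0.29, adjusted p = 0.00521) and without tamoxifen replicate 4, and ranged from 0.25 to 0.40 over left-out libraries and from 0.15 to 0.36 over the other alternatives (adjusted p from 0.000220 to 0.570, edgeR or DESeq2). The replicate block changed no other call of a member, and whether replicate numbers mark pairs was not settled.

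Uncalled values changed sign with total counts: KRT8 in the repressive line (-0.03), and neutral minus parental for KRT8 (-0.07) and KRT18 (-0.13). Leaving out 1 library moved those differences between -0.04 and 0.24 for KRT8 (reversed at -0.04 without parental vehicle replicate 2) and between -0.09 and 0.16 for KRT18 (reversed at -0.08 without parental tamoxifen replicate 3, -0.08 without neutral vehicle replicate 1 and -0.09 without neutral tamoxifen replicate 4). Relative to the median of all genes, which total counts moved from 0.00 to -0.12 and from -0.00 to -0.18, these values stayed at 0.09 in the repressive line and at 0.10 and 0.11 (KRT8) and 0.06 and 0.05 (KRT18) for the difference. Since a scaling shifts all genes nearly alike, the relative values could hardly move with it. Why single libraries turned the sign was not tested. The KRT5 bound moved to 17.8-fold with total counts. The KRT6A bound was 15.7 with total counts and 22.0 for KRT6A, KRT6B and KRT6C summed, an alternative chosen after seeing the data.

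Total counts shifted the median of all genes in the activating line from -0.09 to -0.54 and the share of higher calls from 49.0% to 20.8%. In the neutral line that share went from 55.3% to 16.5% and in the repressive line from 43.9% to 20.3%. The corresponding interaction shares went from 48.1% to 28.1% (activating minus neutral), 50.5% to 29.2% (activating minus repressive) and 57.6% to 15.6% (neutral minus parental). For activating against parental vehicle, DESeq2 gave 39.6% in place of 52.5%.

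Counts of called genes moved by over 1.5 times as follows. Parental tamoxifen gave 0 calls, and 1 with total counts, 24 without the filter and 32 with the block. DESeq2 gave 451 in place of 709 for repressive tamoxifen and 273 in place of 432 for repressive against parental vehicle. The block gave 208 in place of 388, 686 in place of 432 and 90 in place of 322 for neutral, repressive and activating against parental vehicle, and the fit over all 32 libraries gave 542 for the last. Total counts gave 58 in place of 135 for repressive minus neutral and 32 in place of 59 for neutral minus parental. Without 1 library, parental tamoxifen gave 0 to 3 calls, neutral tamoxifen 105 (without tamoxifen replicate 3) to 415 (without tamoxifen replicate 4), neutral, repressive and activating against parental vehicle 202 to 517, 251 to 480 and 120 to 315 (each lowest or next to it without parental vehicle replicate 3), and neutral minus parental 34 to 70. The KRT8 share of the pair was higher with tamoxifen in each line under all alternatives run, the block included. KRT18, KRT5 and KRT6A stood on 9 to 58 counts wherever above 0, and how far depth or strand assignment set these counts was not tested.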
